A study of Mus musculus with 6 samples.

Results

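The DEAD-box helicases form the largest family of RNA helicases, and the promoters of the mouse genes that carry the symbol Ddx followed by a digit were followed here from normoxia into hypoxia. GENCODE M21 annotates 37 such protein-coding genes on mm10, out of 21951 protein-coding genes, and the rule takes them by symbol alone, although the family itself was picked for study with earlier results of these data known. The symbol rule also takes Ddx11, Ddx58 and Ddx60, whose proteins belong to other branches of the same helicase superfamily. GL261 is a mouse glioma cell line, used as cells that stably expressed pEGFP-N1 and were grown in DMEM with 10% FBS. Its cells were kept at 21% O2 (normoxia) or were put for 16 h into 1% O2 (moderate hypoxia) or <0.1% O2 (severe hypoxia) in a hypoxic chamber, and 2 replicate libraries were made for each oxygen level, 6 in all. Nothing in the labels says whether the 2 replicates of a level came from separate cultures, so the p-values given here measure the spread between these libraries, which may be technical. The ATACseq libraries come from this single cell line.

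ATACseq was read out as lists of MACS2 peaks, 1 list for each library, with 33006 to 43554 peaks a list. In this assay a transposase cuts open chromatin, and the number of DNA fragments piled up at the summit of a peak grows with accessibility. From the deposited fold enrichment and p-value the summit pileup of each peak was recovered as a number of fragments, which came out whole to within 0.0053 for 100% of the peaks of every library. The smallest local background of a list, which stands for the mean fragment coverage of the genome, rose from 2.16 and 2.36 (21% O2) over 2.93 and 2.99 (1% O2) to 3.35 and 3.18 (<0.1% O2). Every hypoxic library was therefore deeper than both normoxic ones, and depth cannot be told apart from oxygen level in raw pileups. Pileups are given below after scaling each library to a common median over the 28432 consensus peaks found in all 6 libraries. A fall on that scale is a fall relative to the other peaks of the same library. Replicates differed at the Ddx promoters by a median of 0.18 (21% O2), 0.12 (1% O2) and 0.14 (<0.1% O2) on the log2 scale. The promoters of the glial genes Sox2, Nes, Vim, Gfap, Olig2 and S100b had a peak in all 6 libraries, and those of Ptprc, Aif1, Cd3e, Cdh5 and Rbfox3 had none in any, whereas Pecam1 had one in 5 libraries and Syt1 in all 6.

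DEAD-box proteins bind and locally unwind RNA in an ATP-dependent manner and remodel complexes of RNA and protein. Members act at almost every step in the life of an RNA. A large group works in the nucleolus on ribosome assembly, a second group drives steps of pre-mRNA splicing, and others act in mRNA export, translation and decay, in tRNA ligation or in the sensing of viral RNA. Several members also act on R-loops, which are RNA/DNA hybrids with a displaced DNA strand, and the study shortlisted Ddx1, Ddx3x, Ddx5, Ddx18, Ddx21, Ddx27 and Ddx39b among the R-loop helicases whose promoters had become less accessible in these same libraries. The direction of those members is thus not independent evidence, and they are kept apart from the others below.

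A promoter peak is a consensus peak within 2000 bp of an annotated start site, and where a gene had several the one with the highest mean pileup was used. Of the 37 members, 34 (91.9%) had a promoter peak, and all 34 had it in each of the 6 libraries. Among all protein-coding genes 53.0% had a promoter peak in all 6. All 7 shortlisted members and 27 of the 30 others were in this set, and none of the 34 was left without a promoter peak at any oxygen level. A further consensus peak near Ddx19b, at chr8:111029610-111029865 and 1846 bp from the nearest annotated start, was in neither normoxic library and in 3 of the 4 hypoxic ones, with 103 fragments in the first library at 1% O2 and 84 and 78 at <0.1% O2. The promoter peaks were 610 to 1893 bp wide with a GC content of 47.7% to 69.8%, and the median summit lay within 500 bp of the start site for 30 of 34 members.

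The members without any promoter peak were Ddx3y, Ddx4 and Ddx43. Ddx4 (Vasa) is a germ cell marker, and its start sites between positions 112652301 and 112652475 of chromosome 13 lay at least 7800 bp from the nearest peak of any library. Ddx43 is expressed chiefly in the testis, and its start site on chromosome 9 lay at least 16969 bp from the nearest peak. Ddx3y is the Y-linked counterpart of Ddx3x, and the lists held only 9 or 10 peaks on the whole Y chromosome in each library. The nearest of these was 436797 bp away at least. Of 5 further Y-linked genes that were looked up after this was seen (Kdm5d, Uty, Eif2s3y, Usp9y and Zfy1), none had a promoter peak in any library. No change with oxygen can be measured at these promoters.

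Promoter sequences are shown for members on which the comparison at <0.1% O2 turned. Each is the stretch before the RefSeq start site (GRCm38.p6, the mm10 assembly) that no annotated exon overlaps, up to 210 bases, and each lies inside the consensus peak of its gene. Capitals mark letters of the motifs searched, on either strand: CCAAT in Ddx18, GGGCGG in Ddx19a, and GGGCGG and TATAAA in Ddx58. The stretches of Ddx1, Ddx21, Ddx46 and Ddx47 hold none of the motifs. The full 250 bases before the start site, which reach beyond these stretches, hold CCGGAAG in Ddx1, GGGCGG in Ddx46 and CCAAT in Ddx47. They also hold GGGCGG in Ddx18, and none of the motifs in Ddx21. The first 5 belong to members called lower at <0.1% O2, Ddx47 is a nucleolar member that was not called by pileup, and Ddx58 is among the members with the highest change.
Ddx18 (nucleolus), chr1:121567990-121568199, minus strand: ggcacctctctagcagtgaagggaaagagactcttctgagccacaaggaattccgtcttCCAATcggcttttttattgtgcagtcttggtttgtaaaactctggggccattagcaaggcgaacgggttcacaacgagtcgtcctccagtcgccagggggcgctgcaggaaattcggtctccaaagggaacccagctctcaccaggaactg
Ddx21 (nucleolus), chr10:62602299-62602349, minus strand: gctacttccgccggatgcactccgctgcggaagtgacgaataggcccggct
Ddx1 (tRNA ligase), chr12:13249214-13249423, minus strand: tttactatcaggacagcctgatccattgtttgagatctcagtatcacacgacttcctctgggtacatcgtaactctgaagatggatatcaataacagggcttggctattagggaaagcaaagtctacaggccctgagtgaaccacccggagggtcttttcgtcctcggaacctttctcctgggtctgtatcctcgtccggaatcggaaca
Ddx46 (splicing), chr13:55634765-55634974, plus strand: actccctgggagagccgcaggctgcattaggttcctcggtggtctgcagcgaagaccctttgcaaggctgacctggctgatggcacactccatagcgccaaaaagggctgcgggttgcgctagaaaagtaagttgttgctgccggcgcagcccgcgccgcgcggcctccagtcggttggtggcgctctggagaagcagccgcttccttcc
Ddx19a (mRNA export), chr8:110997824-110998033, minus strand: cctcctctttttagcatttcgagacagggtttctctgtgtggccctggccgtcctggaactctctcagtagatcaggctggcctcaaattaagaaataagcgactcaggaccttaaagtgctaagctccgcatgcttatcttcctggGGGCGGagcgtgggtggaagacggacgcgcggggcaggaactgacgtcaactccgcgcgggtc
Ddx47 (nucleolus), chr6:135011402-135011611, plus strand: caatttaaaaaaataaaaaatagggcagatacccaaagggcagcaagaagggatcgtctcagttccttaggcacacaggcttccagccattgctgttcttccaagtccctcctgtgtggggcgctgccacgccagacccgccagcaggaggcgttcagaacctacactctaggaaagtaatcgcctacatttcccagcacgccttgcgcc
Ddx58 (RNA sensing), chr4:40239829-40240038, minus strand: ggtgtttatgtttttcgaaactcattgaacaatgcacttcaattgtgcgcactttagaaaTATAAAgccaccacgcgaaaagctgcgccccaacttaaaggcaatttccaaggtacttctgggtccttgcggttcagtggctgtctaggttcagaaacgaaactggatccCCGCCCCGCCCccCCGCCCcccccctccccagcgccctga

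The motifs were searched on both strands of the 250 bases before the RefSeq start site, for the 30 members with a promoter peak that had an entry. Ddx6, Ddx11, Ddx23 and Ddx39 had none. The GC box core GGGCGG was in 18 of 30 members (60%) against 64.5% of 8952 protein-coding promoters treated alike. CCAAT was in 14 members (46.7% against 37.2%), and CCGGAAG, the core bound by ETS factors, in 9 (30% against 15.5%). ACGTG, the core of the hypoxia response element, was in 9 members (30% against 22.8%), and CACGTG, which contains it, only in Ddx5 (3.33% against 8.76%). GCGCATGC was in Ddx19b and Ddx41 (6.67% against 4.99%) and TATAAA only in Ddx58 (3.33% against 5.37%). Among the 11 members called lower at <0.1% O2, 8 held GGGCGG, 5 CCAAT, 3 ACGTG and 2 CCGGAAG. Of the 19 other members searched, 10, 9, 6 and 7 did. These matches describe the letters in the window and are no evidence of binding.

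At <0.1% O2 most Ddx promoters stood lower than at 21% O2. The log2 change of scaled pileup was below 0 for 30 of 34 members and had a median of -0.46, against -0.24 over the 11638 protein-coding genes with a ranked promoter peak (69.4% of them below 0) and 0.00 over all 28432 ranked peaks. The median was -0.92 for the 7 shortlisted members and -0.32 for the 27 others. Limma, fitted on all ranked peaks with Benjamini-Hochberg adjustment, called a peak changed at an adjusted p under 0.05 and a log2 change of at least 0.6. By this rule 11 members (32.4%) fell and 0 rose, against 21.7% of protein-coding promoters that fell and 2.95% that rose. The background is thus itself tilted to lower values, and no test was made of the excess of the members over it. On adjusted p alone 19 members were lower and 1 higher, against 43% and 11.7% of protein-coding promoters. Among the shortlisted members 5 of 7 fell, and among the others 6 of 27 (22.2%) against the 21.7%, namely Ddx51, Ddx46, Ddx49, Ddx19a, Ddx42 and Ddx25. Without the second normoxic library Ddx19a (-0.47), Ddx25 (-0.48) and Ddx42 (-0.59) fell short of a change of 0.6, while Ddx17 passed it (-0.65). Without the first severe library Ddx19a, Ddx25 and Ddx42 stood at -0.51, -0.56 and -0.51. The median over coding promoters was then -0.22 and -0.21, in that order. With a GC correction the count of the others was 6 of 27, with Ddx11 in place of Ddx42. The share of coding promoters was then 12.5%, and the median of all members was -0.26. The values in each library, in the plot of scaled pileups by gene, show that both severe libraries lay below both normoxic ones for each of the 11. These 11 were picked on the same values, so this is no further support for the calls. Scaled to the genome coverage of each library instead of its median peak, 18 members fell at <0.1% O2 and 1 at 1% O2, against 33.1% and 2.42% of coding promoters (1.47% and 6.97% of which rose), and the median of all ranked peaks itself shifts to -0.16 and 0.13.

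**Figure D1:**
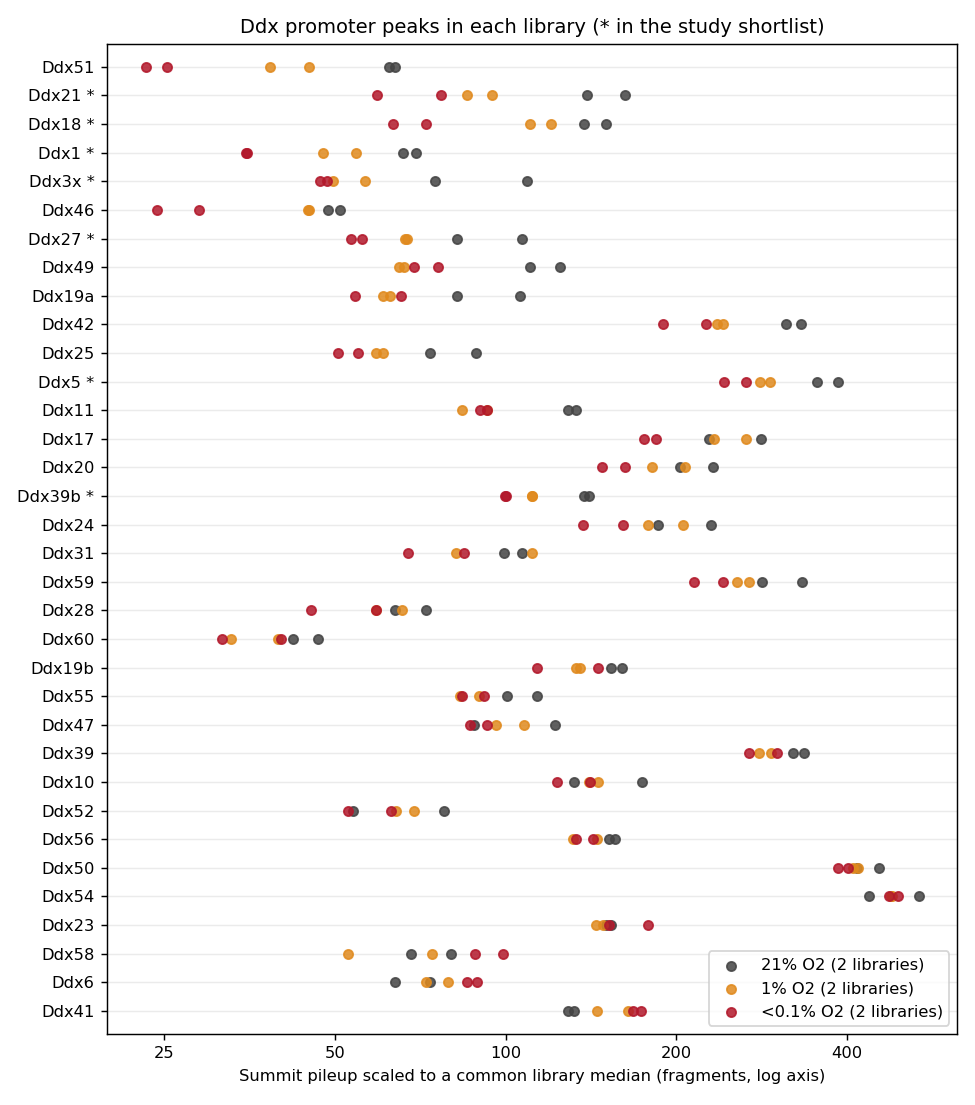
Scaled summit pileup (fragments, logarithmic axis) of the promoter peak of each of 34 Ddx genes, with 1 point for each of the 6 libraries, coloured by oxygen level and ordered by the change at <0.1% O2. For the members at the top both libraries at <0.1% O2 lie left of both at 21% O2, as for Ddx51 at 25.3 and 23.2 against 62.4 and 63.8, whereas Ddx6, Ddx58 and Ddx41 at the bottom run the other way.

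The median of the members at <0.1% O2 was -0.46 without the GC correction and -0.26 with it. Without that correction the shift at 1% O2 was smaller. At 1% O2 the change was below 0 for 31 of 34 members with a median of -0.23, against -0.08 over protein-coding promoters and -0.03 over all ranked peaks. The median was -0.41 for the shortlisted members and -0.16 for the others. Limma called 4 members (11.8%) lower, Ddx49, Ddx21, Ddx3x and Ddx51, and 0 higher, against 6.57% and 2.81% of protein-coding promoters. Ddx21 and Ddx3x are shortlisted, which leaves 2 of the 27 others (7.41%), near the background share. On adjusted p alone 11 members were lower and 0 higher, against 22.9% and 12.5% of protein-coding promoters. Both comparisons use the same normoxic libraries, so their values are given side by side and not as separate support for each other. Between the hypoxia levels, <0.1% against 1% O2, Ddx51, Ddx18 and Ddx46 were called lower and 0 members higher, against 5.16% and 0.438% of protein-coding promoters, and on adjusted p alone 8 members were lower and 1, Ddx58, was higher, against 21.1% and 2.9% of protein-coding promoters. With the GC correction Ddx18 kept its call (-0.69), and Ddx51 (-0.46) and Ddx46 (-0.59) lost theirs. Both also lost it without the second library at 1% O2 (-0.66 and -0.76) and without the second severe one (-0.72 and -0.64), and Ddx46 without the first at 1% O2 (-0.77).

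**Figure D2:**
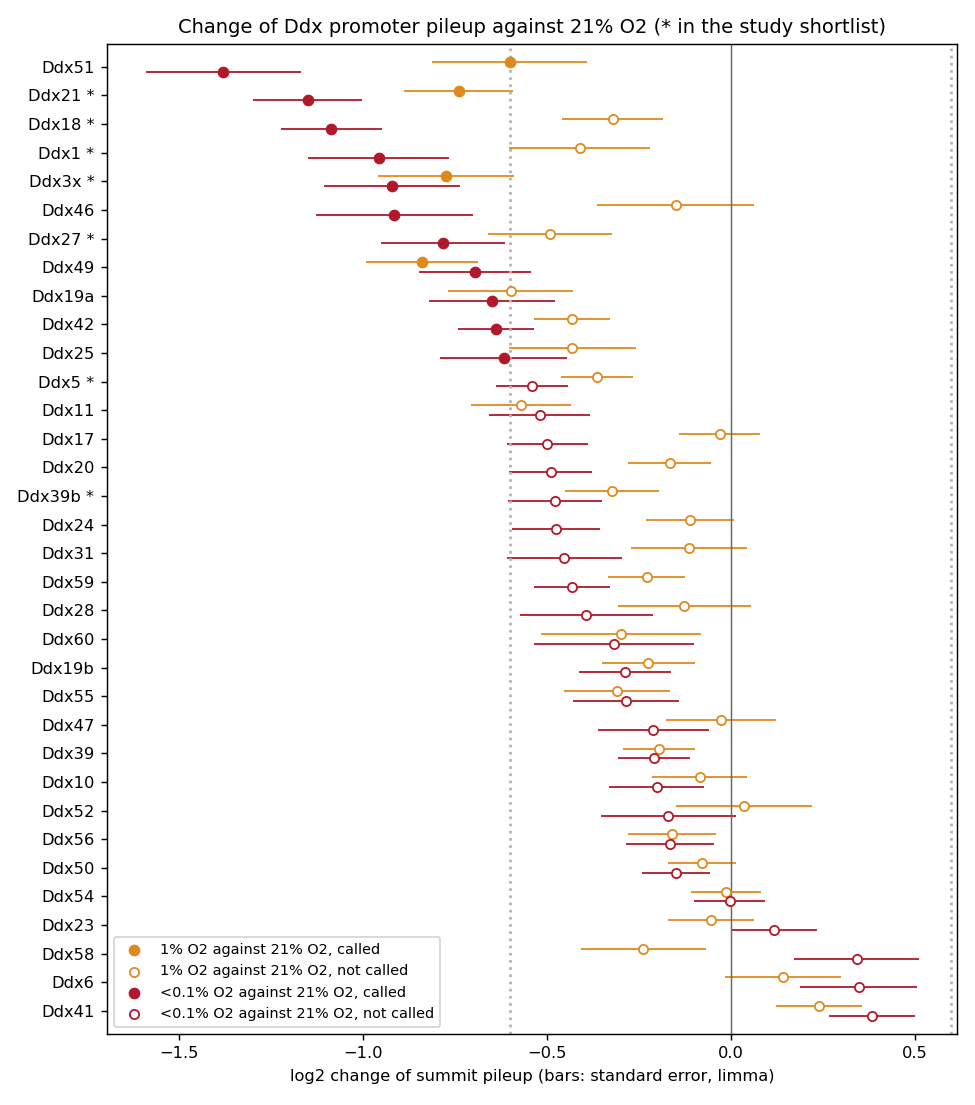
Log2 change of summit pileup against 21% O2 for each of 34 Ddx promoters, at 1% O2 and at <0.1% O2, with bars for the standard error of the limma fit (2 libraries a level), filled points for calls and dotted lines at a log2 change of 0.6 in either direction. The filled points all lie left of 0, with 11 at <0.1% O2 and 4 at 1% O2.

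**Figure D3:**
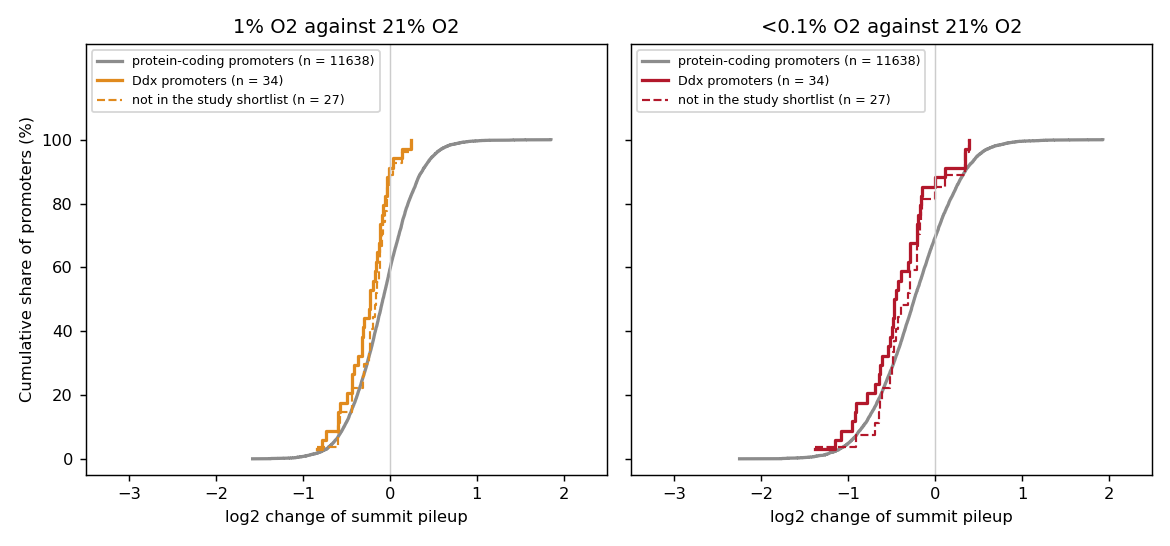
Cumulative share of promoters (%) against the log2 change of summit pileup, for 34 Ddx promoters (coloured, solid), the 27 of them outside the study's shortlist (coloured, dashed) and 11638 protein-coding promoters (grey), at 1% O2 on the left and <0.1% O2 on the right. The Ddx curve lies left of the grey curve over most of its range, with medians of -0.23 against -0.08 on the left and -0.46 against -0.24 on the right, and the dashed curve of the 27 members outside the shortlist lies nearer to it, with medians of -0.16 and -0.32.

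Nucleolar members make up the largest group, with 14 genes, all with a promoter peak. At <0.1% O2 the change was below 0 in 14 of 14, where 69.4% of coding promoters were, with a median of -0.37, and 5 fell by the limma rule (35.7% against 21.7% of coding promoters), namely Ddx51, Ddx21, Ddx18, Ddx27 and Ddx49. Ddx21, Ddx18 and Ddx27 are shortlisted. Of the 11 that are not, 2 fell (18.2%, under the 21.7%) and the median was -0.21, close to that of all coding promoters. With the GC correction the same 2, Ddx49 and Ddx51, fell, and their share of 18.2% then lay over the 12.5% of coding promoters. On adjusted p alone 7 of the 14 were lower and 0 higher, where 43% of coding promoters were lower. With the GC correction Ddx50 stood above 0 at 0.12 and Ddx54 at 0.22 (limma adjusted p = 0.26 and 0.042). Ddx54 was then higher on adjusted p alone.

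Ddx51, which acts in the maturation of the large ribosomal subunit RNA, showed the largest fall in pileup of all members without the GC correction. With that correction its change at <0.1% O2 was -0.99, behind Ddx21 (-1.16) and Ddx18 (-1.05). The scaled pileup of Ddx51 was 62.4 and 63.8 at 21% O2, 38.5 and 45.0 at 1% O2 and then 25.3 and 23.2 at <0.1% O2. The 3 levels did not overlap, and the severe mean was 38.5% of the normoxic mean. The log2 change at <0.1% O2 was -1.38 ± 0.21 (SE, limma adjusted p = 1.6e-06). At 1% O2 it was -0.60 ± 0.21 (limma adjusted p = 0.023), a call at the size limit. That call was lost without the first (-0.62) or the second (-0.58) normoxic library, and without the first library at 1% O2 (-0.49). The call was also lost with the GC correction (-0.53) and with scaling to the genome coverage (-0.43). The peak is weak, with a summit of 22 to 59 fragments before scaling, and it spans 110652924 to 110653836 on chromosome 5, where Noc4l, a nucleolar gene as well, starts on the opposite strand. Reads at this divergent promoter cannot be assigned to one of the 2 genes.

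Ddx21, a nucleolar helicase of rRNA transcription and processing, had scaled pileups of 139 and 162 at 21% O2, 94.5 and 85.6 at 1% O2 and then 59.4 and 77.0 at <0.1% O2. The log2 change was -0.74 ± 0.15 at 1% O2 (SE, limma adjusted p = 0.00016) and -1.15 ± 0.15 at <0.1% O2 (limma adjusted p = 7.4e-08). The call at 1% O2 was lost with scaling to the genome coverage, at -0.57. A second consensus peak, 1261 bp from the start site, changed by -0.56 at 1% O2 and by -0.20 at <0.1% O2 (limma adjusted p = 0.015 and 0.39). Ddx18, required for the assembly of the large ribosomal subunit, had 138 and 150.3 at 21% O2, 120.2 and 110.4 at 1% O2 and then 72.5 and 63.3 at <0.1% O2, without overlap between levels. The mean at 1% O2 was 80.1% of the normoxic one. Its change of -1.09 ± 0.14 at <0.1% O2 (SE, limma adjusted p = 5.5e-08) compares with -0.32 ± 0.14 at 1% O2 (limma adjusted p = 0.065), and the difference between the 2 hypoxia levels passed its own test (-0.76, limma adjusted p = 0.00010).

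Ddx27, a factor of 47S pre-rRNA processing, had scaled pileups of 82.3 and 107 at 21% O2, 66.5 and 67.1 at 1% O2 and then 53.3 and 55.9 at <0.1% O2. Its change was -0.49 ± 0.17 at 1% O2 (SE, limma adjusted p = 0.020) and -0.78 ± 0.17 at <0.1% O2 (limma adjusted p = 0.00023), and the latter call was lost when the second normoxic library was left out, at -0.59. Ddx49, the counterpart of a yeast helicase of the small ribosomal subunit pathway, was lower to a like extent at both hypoxia levels, with 125 and 110.3 at 21% O2, 64.9 and 66.2 at 1% O2 and then 69.0 and 76.0 at <0.1% O2. The changes were -0.84 ± 0.15 and -0.70 ± 0.15 (SE, limma adjusted p = 4e-05 and 0.00027), and the difference between the hypoxia levels did not pass the test (0.14 ± 0.15, limma adjusted p = 0.54). Its peak also holds the start of Cope, a coatomer subunit gene on the opposite strand.

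Among the nucleolar members that were not called, Ddx24 (-0.48 ± 0.12) and Ddx31 (-0.45 ± 0.16) passed the adjusted p without reaching a change of 0.6. The others were Ddx55 at -0.28, Ddx47 at -0.21, Ddx10 at -0.20, Ddx52 at -0.17, Ddx56 at -0.16, Ddx50 at -0.15 and Ddx54 at 0.00, with limma adjusted p from 0.10 to 0.98. Ddx54, which acts on pre-rRNA, had the tallest promoter peak of the family, with scaled pileups of 437 and 535 at 21% O2, 478 and 480.2 at 1% O2 and then 474 and 492 at <0.1% O2. All 4 hypoxic values lay between the 2 normoxic ones. Its summits lay 244 to 454 bp after the start site, and the peak also holds the start of the divergent gene Rita1.

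The splicing members number 9, all with a promoter peak. At <0.1% O2 the median change was -0.49, and 7 of 9 were below 0. Ddx46 and Ddx42 fell by the limma rule, neither of which is shortlisted, a share of 22.2% against the 21.7% of coding promoters. On adjusted p alone 6 were lower and 1 higher, against 43% and 11.7%. Ddx46, the counterpart of yeast Prp5 that acts as the U2 snRNP joins the branch site, stood at 51.1 and 48.7 at 21% O2, 44.9 and 45.0 at 1% O2 and then 28.8 and 24.3 at <0.1% O2. Its change was -0.15 ± 0.21 at 1% O2 (SE, limma adjusted p = 0.62) and -0.91 ± 0.21 at <0.1% O2 (limma adjusted p = 0.00055), with a difference between the hypoxia levels of -0.76 (limma adjusted p = 0.0079). At 36 to 56 fragments before scaling outside severe hypoxia, and 33 and 23 within it, it is one of the weakest peaks of the family.

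Ddx42, which associates with the SF3b part of the U2 snRNP, had one of the stronger peaks, at 312 and 332 in normoxia, 236 and 242 at 1% O2 and then 189.6 and 226 at <0.1% O2. The change of -0.64 ± 0.10 (SE, limma adjusted p = 4.6e-06) lay close to the limit of 0.6, and the call was lost under quantile normalization (-0.58), with a GC correction (-0.43), without the second normoxic library (-0.59) and without the first severe library (-0.51). Ccdc47 starts in the same peak on the opposite strand. Ddx5, a helicase of splicing, transcription and R-loop resolution, had 355 and 385 at 21% O2, 281 and 293 at 1% O2 and then 243 and 266 at <0.1% O2. Its levels did not overlap, and its change of -0.54 ± 0.10 passed the adjusted p (SE, limma adjusted p = 2.3e-05) but not the size limit. Ddx5 was called lower with scaling to the genome coverage (-0.70) and without the second severe library (-0.60), and its change was -0.24 with the GC correction. The Ddx5 peak spans 106788255 to 106789482 on chromosome 11 and holds the start of the divergent gene Cep95, and the summits of the 6 libraries lay 209 to 623 bp before the Ddx5 start site. Ddx39b (UAP56), of spliceosome assembly and mRNA export, went from 138 and 141 to 111 and 111 and then to 99.6 and 100.2, a change of -0.48 ± 0.13 at <0.1% O2 (SE, limma adjusted p = 0.0023).

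Ddx17 and Ddx20 moved between the hypoxia levels more than on the way to 1% O2. Ddx17, the closest relative of Ddx5, had 282 and 228 at 21% O2, 265 and 233 at 1% O2 and then 184 and 175 at <0.1% O2, with changes of -0.03 ± 0.11 and -0.50 ± 0.11 (SE, limma adjusted p = 0.86 and 0.00031; -0.20 at <0.1% O2 with the GC correction) and a difference between the levels of -0.47 (limma adjusted p = 0.0019). Ddx20 (Gemin3), of the SMN complex that assembles snRNPs, had 233 and 203, then 181 and 207, then 148 and 162. Its changes were -0.17 ± 0.11 and -0.49 ± 0.11 (limma adjusted p = 0.26 and 0.00051), with -0.32 between the levels (limma adjusted p = 0.034). With the GC correction the change of Ddx20 at <0.1% O2 was -0.19 (limma adjusted p = 0.17). Opposed to these was Ddx41, which acts in splicing and in innate sensing. It was the 1 member that was higher on adjusted p alone, with 129 and 132 at 21% O2, 164 and 145 at 1% O2 and then 173 and 168 at <0.1% O2, a change of 0.38 ± 0.12 (SE, limma adjusted p = 0.0067). Ddx23, the counterpart of yeast Prp28, had 153 and 150.3 at 21% O2, 144 and 148 at 1% O2 and then 152 and 178 at <0.1% O2 (0.12 ± 0.12, limma adjusted p = 0.43), and Ddx39 stood at -0.21 ± 0.10 (limma adjusted p = 0.077).

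Members of translation, export and decay were split. Ddx3x, which promotes translation of mRNAs with structured leaders, had 75.2 and 109 at 21% O2, 49.7 and 56.5 at 1% O2 and then 47.2 and 48.5 at <0.1% O2. The fall was already present at 1% O2, at -0.77 ± 0.18 against -0.92 ± 0.18 at <0.1% O2 (SE, limma adjusted p = 0.0011 and 9.6e-05), and the hypoxia levels did not differ by the test (-0.15, limma adjusted p = 0.61). The call at 1% O2 was lost without the second normoxic library (-0.50) and with scaling to the genome coverage (-0.61). Ddx19a, an mRNA export helicase at the nuclear pore, had 82.3 and 106, then 62.5 and 60.9, then 54.2 and 65.4, with changes of -0.60 ± 0.17 and -0.65 ± 0.17 (limma adjusted p = 0.0055 and 0.0019). At 1% O2 the unrounded change lay just under the size limit, and at <0.1% O2 the call was lost without the second normoxic library (-0.47) or the first severe library (-0.51). Ddx6, which represses translation and promotes decay in P bodies, had 73.7 and 63.8 at 21% O2, 79.3 and 72.4 at 1% O2 and then 89.1 and 85.5 at <0.1% O2. Both severe values lay above both normoxic ones, and the change of 0.35 ± 0.16 missed the threshold (SE, limma adjusted p = 0.067). With the GC correction the change was 0.62 (limma adjusted p = 0.0017), and Ddx6 was called higher. Its summit was 1220 to 1254 bp before the annotated start site in every library.

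Ddx1, a subunit of the tRNA splicing ligase complex, had 69.5 and 66.0 at 21% O2, 54.5 and 47.7 at 1% O2 and then 35.0 and 34.8 at <0.1% O2, without overlap between levels. The severe mean was 51.5% of the normoxic one, with a change of -0.96 ± 0.19 (SE, limma adjusted p = 9.5e-05). Ddx25, a testis helicase, had 73.7 and 88.7, then 60.9 and 59.1, then 50.7 and 54.9 (-0.62 ± 0.17, limma adjusted p = 0.0035), but the summits lay 803 to 960 bp before its start site, inside a peak that holds the start of Pus3, a pseudouridine synthase gene on the opposite strand. The call was lost without the second normoxic library (-0.48) or the first severe library (-0.56), and with peaks limited to a −log10 q of at least 10 (-0.58). Ddx11, a DNA helicase of sister chromatid cohesion, had 129 and 133, then 92.9 and 83.9, then 90.0 and 92.8, with changes of -0.57 ± 0.14 and -0.52 ± 0.14 (limma adjusted p = 0.0012 and 0.0019). Ddx59 stood at -0.43 ± 0.10 (limma adjusted p = 0.00080) and Ddx28, a helicase of the mitochondrial ribosome, at -0.39 ± 0.18 (limma adjusted p = 0.073).

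The innate RNA sensors Ddx58 (RIG-I) and Ddx60 did not share a direction at <0.1% O2. Ddx58 had 68.1 and 80.0 at 21% O2, 52.9 and 74.2 at 1% O2 and then 88.3 and 99.2 at <0.1% O2, with a change against normoxia of 0.34 ± 0.17 (SE, limma adjusted p = 0.093) and a rise from 1% to <0.1% O2 of 0.58 ± 0.17 that passed the adjusted p (limma adjusted p = 0.011) and not the size limit. Ddx60 was the weakest peak at 21% O2, with 46.8 and 42.2, then 32.8 and 39.7, then 40.2 and 31.7 (-0.32 ± 0.22 at <0.1% O2, limma adjusted p = 0.24). These promoters had the lowest ratio of observed to expected CpG of the family, 0.435 and 0.425, against a median of 0.820.

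The second measure was the percentile rank of the fold enrichment of a peak over its local background, among the ranked peaks of its library. A promoter counted as changed where neither hypoxic library overlapped the normoxic pair and the means were 10 or more percentile points apart. No p-value goes with it, since an exact permutation test of 2 libraries against 2 cannot go below 0.33. At <0.1% O2 this called 15 members (44.1%) lower and 2 (5.88%) higher, against 28.2% and 10.8% of protein-coding promoters. At 1% O2 it called 7 lower (20.6%) and 2 higher, against 16.2% and 10.9%. The median rank change of the members was -8.81 points at <0.1% O2, against -3.11 over coding promoters, and -7.41 points for the members outside the shortlist. Among the shortlisted members 5 of 7 were lower at <0.1% O2, and among the others 10 of 27. With ranks taken over the full peak list of a library, 7 members (20.6%) were lower at <0.1% O2 against 18.2% of coding promoters, and 3 (8.82%) at 1% O2 against 5.96%.

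Both measures called 9 members lower at <0.1% O2, namely Ddx1, Ddx18, Ddx21, Ddx25, Ddx27, Ddx3x, Ddx46, Ddx49 and Ddx51. The share of coding promoters called lower by both was not taken. Both measures use the same summit pileup, so they are not independent of each other. The largest falls in rank were those of Ddx46, from 61.0 and 75.0 at 21% O2 to 25.4 and 12.03 at <0.1% O2, and of Ddx1, from 72.7 and 68.0 to 28.8 and 32.5. Ddx18 went from 90.7 and 91.1 to 72.3 and 58.4, after 93.5 and 90.6 at 1% O2. By fold rank only, 6 members were lower, Ddx11, Ddx19b, Ddx20, Ddx28, Ddx31 and Ddx60, and by pileup only Ddx19a and Ddx42. With the GC trend subtracted from the ranks, the fold rank calls of Ddx20 (-9.68 points), Ddx31 (-9.89) and Ddx3x (-6.72) were lost, Ddx19a was called lower and Ddx5 was called higher, at 11.8 points. Ddx60 fell from 46.4 and 56.1 to 30.6 and 33.5 at 1% O2 and to 41.4 and 18.3 at <0.1% O2.

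Ddx5 moved in opposite directions by the 2 measures. Its rank was 57.9 and 48.9 at 21% O2, 47.4 and 65.1 at 1% O2 and then 58.7 and 63.9 at <0.1% O2, a mean change of 7.84 points upwards, while its pileup was lower. The local background at its peak stood at 24.6 and 34.4 fragments at 21% O2 and at 23.7 and 21.6 at <0.1% O2 although the severe libraries were deeper. Over the members, the rank of the local background moved by a median of -8.64 points at <0.1% O2 and that of the pileup by -9.45 points. Over coding promoters these medians were -3.99 and -4.79 points. Whether the background accounts for the opposite directions of Ddx5 was not tested. Ddx39b had ranks of 40.7 and 32.0 at 21% O2 and 36.8 and 37.0 at <0.1% O2, and Ddx41 stayed near the top, between 97.0 and 99.6 in all 6 libraries. The 2 members called higher were Ddx6, from 21.0 and 15.4 to 41.4 and 37.0 at 1% O2 and to 45.0 and 49.1 at <0.1% O2, and Ddx58, from 18.3 and 27.8 to 36.6 and 46.2 at <0.1% O2. Ddx47 was higher at 1% O2 only, at 92.6 and 91.5 against 68.4 and 89.6.

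**Figure D4:**
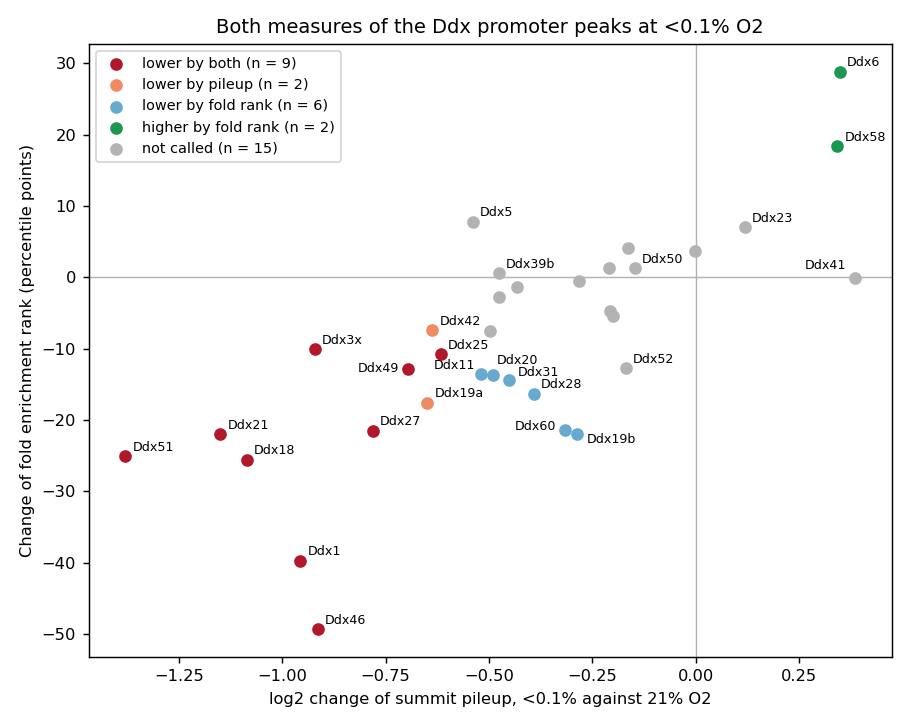
Change of fold enrichment rank (percentile points) against log2 change of summit pileup, <0.1% against 21% O2, with 1 point for each of 34 Ddx promoters, coloured by which measure called it. The 9 members called by both lie at the lower left, Ddx6 and Ddx58 at the upper right, and Ddx5 lies above 0 in rank at a pileup change of -0.54.

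Close relatives in the family were set side by side. By identity of the longest coding sequences over the shorter one, 7 pairs stood at 69.2% or more, and the next pair was at 64.6%. Ddx19a and Ddx19b (93.3% identity) have promoter peaks 35.1 kb apart on chromosome 8, with pileup changes of -0.65 ± 0.17 and -0.29 ± 0.13 at <0.1% O2. Ddx19b has 2 annotated start sites. The peak taken for it is 1810 bp from the nearer one and holds the start of Aars, the alanyl-tRNA synthetase gene. The peak at the other start site was small, with 27 and 35 fragments at 21% O2 and 40 and 27 at <0.1% O2 before scaling. Its scaled change was -0.26 at 1% O2 and -0.27 at <0.1% O2 (limma adjusted p = 0.40 and 0.36), and its fold rank moved by -12.01 and -13.4 points. Ddx3x and Ddx3y (84.5%) differed in presence, Ddx3y having no peak. Ddx39 and Ddx39b (81.4%) stood at -0.21 ± 0.10 and -0.48 ± 0.13, and Ddx5 and Ddx17 (70.6%) at -0.54 ± 0.10 and -0.50 ± 0.11.

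The widest gap within a pair was that of Ddx21 and Ddx50 (69.5%), nucleolar helicases whose promoter peaks lie 47.6 kb apart on chromosome 10. Ddx21 changed by -1.15 ± 0.15 at <0.1% O2 and Ddx50 by -0.15 ± 0.09. Ddx50 had 417 and 456 at 21% O2, 409 and 418 at 1% O2 and then 385 and 402 at <0.1% O2, and its fold ranks were 88.0 to 96.8 in all 6 libraries where those of Ddx21 ran from 35.3 to 10.0. Ddx25 pairs with Ddx19b (69.6%) and Ddx19a (69.2%) and is described above. Ddx41 and Ddx46 are not close relatives, but their promoter peaks lie 97.7 kb apart on chromosome 13, with changes of 0.38 and -0.91. No test was made of the difference within a pair, and the paired peaks come from the same libraries.

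Members called lower and the others overlapped in base composition and layout. The 11 called lower by limma at <0.1% O2 had a median GC content of 57.2% (51.7% to 69.8%), against 58.8% (47.7% to 67.1%) for the 23 others, and median widths of 1002 and 971 bp. A divergent coding gene started in the peak of 4 of 11 and 5 of 23. Those called lower had a median scaled pileup at 21% O2 of 94.1 (49.9 to 322) against 152 (44.5 to 486). The fit was repeated after removing the trend of pileup with GC content in each library. The median change at <0.1% O2 then was -0.26 for the members and -0.07 for coding promoters, with 11 members lower and 1, Ddx6, higher, against 12.5% and 6.31% of coding promoters. Ddx11 joined the members that fell, and Ddx42 left them. The change at <0.1% O2 also shrank to -0.20 for Ddx17, -0.19 for Ddx20, -0.13 for Ddx59 and -0.10 for Ddx31, and the median of the 27 members outside the shortlist was -0.19.

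**Figure D5:**
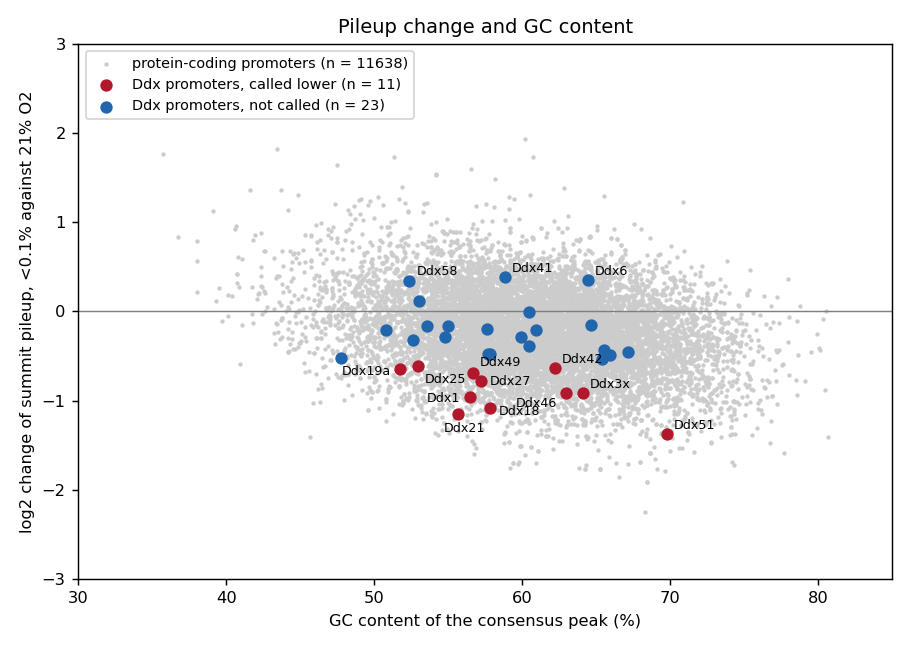
Log2 change of summit pileup at <0.1% against 21% O2 and GC content (%) of the consensus peak, for 34 Ddx promoters (red where called lower, blue where not) over 11638 protein-coding promoters (grey). The red points span 51.7% to 69.8% GC and overlap the blue ones, which span 47.7% to 67.1%.

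DEAD-box proteins that carry other names and close partners of the family were looked at as a list of 20 genes, all with a ranked promoter peak. At <0.1% O2, 4 of the 20 fell by the limma rule and 0 rose, near the 21.7% of coding promoters, with a median change of -0.36, and on adjusted p alone 12 were lower and 1 higher, against 43% and 11.7% of coding promoters. The 3 eIF4A genes differed. Eif4a2 changed by -1.51 ± 0.17, from scaled pileups of 104 and 146 at 21% O2 to 58.5 and 65.3 at 1% O2 and 42.8 and 43.3 at <0.1% O2 (SE, limma adjusted p = 8.1e-09). Eif4a1, the major translation initiation helicase, stood at 0.05 ± 0.10 (limma adjusted p = 0.69) while its fold rank was called higher, by 14.1 points, and Eif4a3, of the exon junction complex, at -0.41 ± 0.13 (limma adjusted p = 0.011).

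The other 3 that fell were each a partner of a member. Smn1, which works with Ddx20, changed by -1.06 ± 0.21, Lsm14a, a P body partner of Ddx6, by -1.22 ± 0.14, and Fam98b, of the tRNA ligase complex with Ddx1, by -0.83 ± 0.16 (SE, limma adjusted p = 7.2e-05, 6.5e-09 and 5.9e-05). The tRNA ligase subunit Rtcb itself stood at -0.38 ± 0.15 and Rtraf at 0.22 ± 0.13. Gle1, which activates Ddx19 at the nuclear pore, was the 1 gene of the list that was higher on adjusted p alone, at 0.54 ± 0.16 (limma adjusted p = 0.0046).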

How the data were processed

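ATACseq libraries of GL261 cells, 2 for each of 21%, 1% and <0.1% O2, were analysed from the peak lists that the authors deposited. The authors fixed the cells in 1% formaldehyde before transposition, and according to the submitters' processing notes used Trimmomatic, Bowtie2 2.2.5, Picard, MACS2 2.1.1.2 and deepTools on mm10. Replicates were not pooled for peak calling. Each deposited peak comes with the ratio of its summit to the local background (fold enrichment) together with a p-value and a q-value, both as −log10, and the largest q-value in a list was 0.00053 to 0.00099. Read counts were not used here, so the count test of the study was not run, and the depth of each library is known only as genome coverage (2.16 to 3.35).

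Summit pileup and background were recovered from the authors' fold ratio and p-value. Consensus peaks were built by merging, over the 3 levels, the stretches of more than 200 bp that a level's replicates had in common (41308, of which 28432 were in all 6 lists). Log2 pileups, centred on the library median, were tested with limma 3.58.1 (R 4.3.3; 3 groups in 1 fit, mean-variance trend, no replicate block), with 3 residual degrees of freedom for each peak before the spread was shared between peaks. Start sites were those of basic transcripts in GENCODE M21. Both procedures were tested on simulated data. Sequences are from RefSeq (GRCm38.p6), and all 30 member sequences matched the genome. The GC correction subtracted the median over 50 bins of GC content in each library. The Ddx genes, role groups, partner list, motifs and tests were chosen with earlier results of these data known.

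Values in every library are given for the 7 shortlisted members, for the 5 lowest and the 5 highest of the others at <0.1% O2, and for the 8 called members of the others with the largest change, and Ddx17, Ddx50 and Ddx60 were added after their values were seen. Relatives were paired by coding sequence in place of the protein identity first planned. Pat1b of the partner list is annotated as Patl1. Alternatives covered scaling, the trend, the size limit, a replicate block, each library left out, GC content, the promoter window, start sites, the peak taken, the value ranked, the shared stretch and the peak threshold. Software was samtools 1.23.1, Biopython 1.88, scipy 1.17.1, pandas 2.3.3 and numpy 2.4.6 under Python 3.11.15.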

Additional observations from a re-analysis of the deposited data

How the results depend on the processing

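Calls were limited to log2 changes of at least 0.6, and weak peaks such as Ddx51, Ddx46 and Ddx60 rest on few fragments. The count of 34 promoters with a peak in all 6 libraries stayed at 34 except for 33 with a −log10 q of at least 10 and 32 with equal numbers of top peaks. The limma calls at <0.1% O2 (11 lower, 0 higher) became 18 lower when pileups were scaled to the genome coverage, which moves the median of all ranked peaks to 0.13 at 1% O2 and -0.16 at <0.1% O2. That scaling left 1 call lower at 1% O2 and gave 10 between the hypoxia levels. The share of coding promoters called between the levels under that scaling was not taken. On adjusted p alone, 19 were lower and 1 higher at <0.1% O2, 11 lower at 1% O2, and 8 lower and 1 higher between the levels. With the GC correction 1 was higher at <0.1% O2 and 1 lower between the levels, also together with the replicate block. Leaving out 1 library in turn gave 8 to 13 lower calls at <0.1% O2 and 2 to 5 at 1% O2, the 2 without the second normoxic library. Between the levels it gave 1 to 3 lower, the 1 (Ddx18) without the second library of either hypoxia level, and 0 to 1 higher, the 1 (Ddx58) without the second at 1% or the first at <0.1% O2. Ddx1, Ddx18, Ddx21, Ddx3x, Ddx46, Ddx49 and Ddx51 were called lower at <0.1% O2 under every limma alternative run on them.

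By fold rank at <0.1% O2 (15 lower, 2 higher), ranks within the whole list gave 7 lower, and a limit of 20 points gave 8 lower and 1 higher. At 1% O2 (7 lower, 2 higher) these settings gave 3 lower and 4 higher, and 1 lower and 1 higher. With ranks within the whole list, 5.96% of coding promoters were lower at 1% O2 and 17.9% higher, against 8.82% and 11.8% of the members. Ranks of the −log10 q gave 1 higher at 1% O2 and ranks of the pileup 0. Leaving out 1 library gave 6 to 11 lower at 1% O2 (11 without the first normoxic one), 2 to 4 higher at 1% O2 (4 without the second normoxic or either 1% O2 library) and 2 to 4 higher at <0.1% O2 (4 without the first normoxic or first severe one). Lower fold rank calls at <0.1% O2 were lost without the second normoxic library for Ddx3x (-3.15 points) and Ddx25 (-4.95), without the first normoxic one for Ddx49 (-8.56), without the first severe one for Ddx3x (-7.36), Ddx11 (-9.91) and Ddx31 (-5.11), and without the second severe one for Ddx60 (-9.82). Ddx39b reversed to -11.1 points with ranks of the −log10 q and to -13.0 with ranks of the pileup, and Ddx41 reversed to 12.8 points with ranks of the pileup, where the cause was not tested. Sign changes of values that were called under neither setting are not listed. With the replicate block, limma called 11 lower at <0.1% O2, and no limma call of a member against 21% O2 changed. Replicate differences correlated between levels at -0.05, -0.01 and 0.01 across ranked peaks, so no shared effect of the replicate number was seen. These values cannot tell whether libraries of the same replicate number were cultured or processed together.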
